A study of Arabidopsis thaliana with 6 samples.

Results

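Pectin methylesterases (PME) and the proteins that inhibit them (PMEI) were followed in whole Arabidopsis thaliana seedlings after 1 h under water. Members were taken by name: every row of the deposited expression table called PME or PMEI plus a number, which gave 63 genes of 27655, 53 of them PME and 10 PMEI. All seedlings were of the Col-0 accession, were raised on MS-agar plates in long days and were 14 days old. Of 6 libraries, 3 came from seedlings submerged in distilled water for 1 h and 3 from seedlings left in air for the same time, which served as controls; no transgene or mutation is listed. RNA was measured as a mixture of all organs, so fewer cells of a type and less RNA per cell cannot be told apart. The labels number the libraries of each group without saying whether they came from separate plates or pools of seedlings, so the p-values measure only the spread between these samples, which may be technical.

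Pectin is laid down in the wall with its galacturonic acid backbone (homogalacturonan) capped by methyl groups. PME enzymes remove those groups, after which calcium can cross-link neighbouring chains and stiffen the wall, or pectin-degrading enzymes can cut them and soften it. PMEI proteins bind the enzymes and block them, and plant PMEs come in a long form, made with an inhibitor-like region ahead of the enzyme, and a short form without it. In growing seedlings the balance of enzyme and inhibitor is known to affect hypocotyl and root elongation.

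PME transcripts changed in both directions under water, while PME3, the most abundant, did not pass the test. PME41, an enzyme gene tied to chilling tolerance and brassinosteroid, rose 17.1-fold, and PME20, with few counts in air, rose 8.22-fold. PME25 rose 4.75-fold from an already high level, PME12 rose 3.48-fold, and PME64, PME6 and PME17 rose 2.06-fold to 2.34-fold. PME53, PME8, PME35, PME68 and PME31 fell, by 1.37-fold to 3.76-fold. Of the genes named PMEI, PMEI7 rose 1.67-fold and no other passed the test. An annotated inhibitor outside the naming rule, PME1_2 (AT4G12390), fell (log2 fold change -0.68).

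Counts were compared by edgeR's quasi-likelihood test with Benjamini-Hochberg adjustment over 19495 genes, and a gene was called at an adjusted p under 0.05. The count filter kept 31 of the 63 members, 25 PME and 6 PMEI. Of those, 8 were called higher (25.8%, against 28.8% of all genes tested) and 5 lower (16.1%, against 26.1%), so 41.9% were called beside 55.0% over the table. At least a 2-fold rise was called for 7 (22.6%, against 9.69% of all genes) and at least a 2-fold fall for 3 (9.68%, against 5.59%). The median log2 fold change of the 31 was 0.10, and that of all genes was 0.01. Since a low member can pass the filter through the group where it is high, these shares describe the genes that passed and not the family.

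Library totals ran from 20041244 to 29673924 counts. Levels below are CPM (counts per 1e6 counts, adjusted for library composition) with SD over n = 3 libraries, fold changes carry an SE, and TPM, the deposited measure per gene length, is used where genes are set beside each other. Root-preferred markers summed to 135 to 200 CPM in air and 253 to 272 CPM under water. Most of each sum was 1 gene, TIP2-2, at 89.5 to 115 CPM in air and 190 to 199 CPM under water. Of 13 tested, 2 were called higher, TIP2-2 and NRT2.1, the latter with 6 to 8 counts per air library. The other 11 were not called. Green shoot markers summed to 26700 to 28500 CPM in air and 17700 to 20400 CPM under water, with 5 of 6 called lower. Of all genes tested 28.8% were called higher and 26.1% lower. Of 4 pollen markers none had a count in air, and only VGD1, which the table names PME5, was found under water, with 2 counts in submerged replicate 1. Within the air group, 12 of 13 root markers were higher in air replicate 2 than in the other air libraries (median log2 difference 0.86) and 12 of 13 were lower in air replicate 3 (median -1.01).

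Among the long enzymes, PME41 (AT4G02330) had the largest rise. Its level was 3.3, 1.13 and 6.49 CPM in air replicates 1 to 3 and 52.0, 78.0 and 54.9 CPM in the submerged libraries. The lowest submerged library stood far above the highest air library, although the air libraries themselves were spread widely. The log2 fold change was 4.10 ± 0.32 (adjusted p = 2e-07). It ran from 3.69 without air replicate 2, the lowest air library, to 4.74 without air replicate 3, the highest.

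PME20 (AT2G47550) was close to the bottom of the detectable range in air, with 14, 26 and 3 counts, or 0.537, 1.22 and 0.147 CPM. Under water it stood at 4.45, 3.95 and 7.48 CPM. The air libraries alone would not have passed the count filter, so PME20 was tested through the submerged group, where it is high. With that limit, the groups did not overlap, and the log2 fold change was 3.04 ± 0.47 (adjusted p = 0.000112). Air replicate 2 carried most of the air counts, and without it the value was 3.84. In air, PME20 and PME41 ranked against each other: PME20 was highest in air replicate 2, where root markers were high, and PME41 in air replicate 3, where they were low. With the mean level of the root markers as a covariate, the rise was 4.87 for PME41 and 2.72 for PME20 on the log2 scale.

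PME25 (AT3G10720) combined a large rise with a high level. It was tightly grouped in air at 58.8, 54.1 and 56.9 CPM and stood at 258, 295 and 254 CPM under water. Its log2 fold change of 2.25 ± 0.07 had the smallest adjusted p of the 63 genes (6.21e-11). Leaving out any library moved it only between 2.18 and 2.29.

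PME12 (AT2G26440) went from 10.3, 8.60 and 12.3 CPM to 32.8, 35.8 and 40.2 CPM (log2 fold change 1.80 ± 0.12, adjusted p = 5.86e-08). PME64 (AT5G64640) went from 7.90, 6.49 and 7.27 CPM to 17.2, 16.4 and 17.2 CPM (1.23 ± 0.11, adjusted p = 1.13e-06). For these genes the difference between groups was several times the spread within either.

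PME17 and PME6 rose by less, relative to their spread. PME17 (AT2G45220), an enzyme known from roots and from the defence against the grey mould Botrytis, had 2.92, 4.42 and 1.62 CPM in air and 5.37, 5.54 and 7.69 CPM under water (1.04 ± 0.29, adjusted p = 0.00908). Its air values followed the root markers, high in replicate 2 and low in replicate 3, and with the root covariate the value was 0.76 (adjusted p = 0.0376). PME6 (AT1G23200), which acts in seed mucilage and in guard cells, had 1.46, 1.88 and 1.87 CPM in air and 3.04, 2.72 and 6.29 CPM under water (1.20 ± 0.34, adjusted p = 0.00846). Submerged replicate 3 held the high value, and without it PME6 stood at 0.74 and was no longer called (adjusted p = 0.0513).

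PME35 (AT3G59010), an enzyme that supports the mechanical strength of stem fibres, was the long enzyme called lower. It had 3.49, 2.96 and 3.05 CPM in air and 1.42, 1.27 and 1.86 CPM under water, with no overlap (-1.07 ± 0.27, adjusted p = 0.00400). RefSeq calls this locus PME61, one of several where the table's number and the RefSeq symbol differ.

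**Figure D1:**
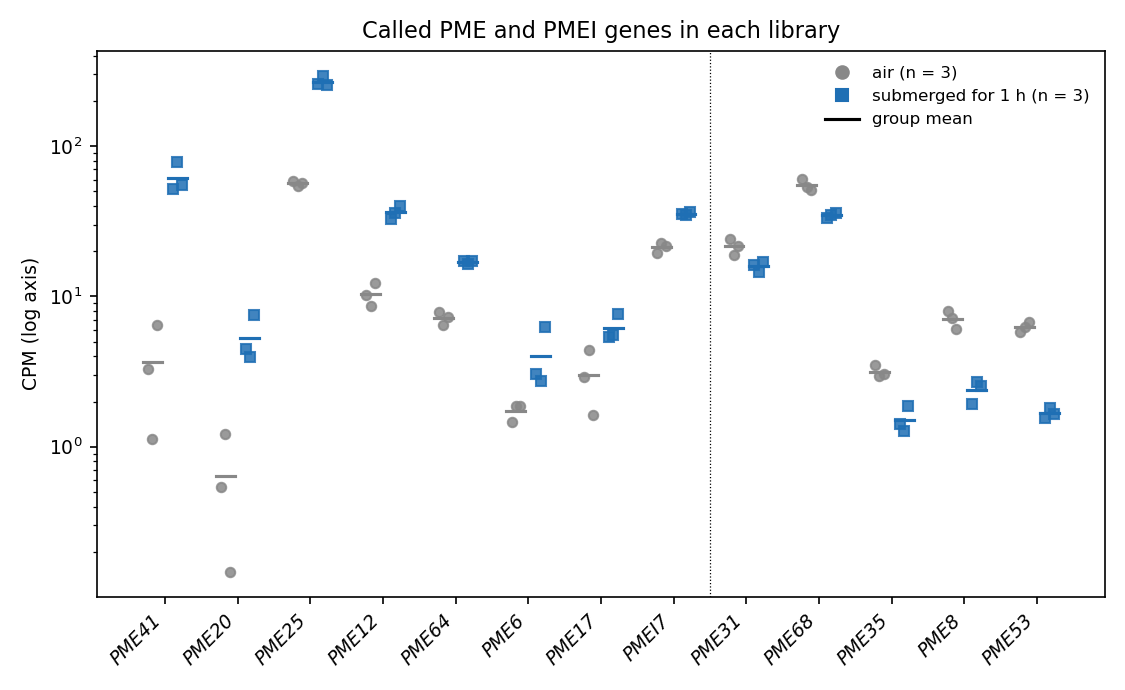
CPM on a log axis for the 13 called genes in each of 3 air libraries (grey circles) and 3 submerged libraries (blue squares), with group means as lines; genes left of the dotted line were higher under water. For every gene shown the libraries of the groups do not overlap, and PME41 and PME20 show the widest air spread.

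Most of the short enzymes that could be tested fell. PME genes split by RefSeq protein length into 16 with at most 407 residues and 37 with at least 474, a grouping chosen after the values were seen and therefore given without a test. Of the 5 short ones that passed the filter, 4 were called lower and none higher (median log2 fold change -0.67). Of the 20 long ones tested, 7 were called higher and 1 lower (median 0.12). Over all genes tested 28.8% were called higher and 26.1% lower, and with so few short enzymes tested no difference between the classes is claimed.

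PME53 (AT5G19730) had the largest fall of the members tested, from 5.83, 6.25 and 6.78 CPM to 1.55, 1.81 and 1.65 CPM (-1.91 ± 0.20, adjusted p = 3.91e-06). PME8 (AT1G05310) went from 7.98, 7.14 and 6.1 CPM to 1.92, 2.68 and 2.53 CPM (-1.59 ± 0.20, adjusted p = 2.37e-05). In either gene every submerged library lay below every air library by a wide margin.

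PME68 (AT5G47500) and PME31 (AT3G29090) were far more abundant and fell by less. PME68, which RefSeq lists as PME5 and which is known for a part in organ formation at the shoot apex, had 60.6, 53.3 and 51.4 CPM in air and 33.3, 35.0 and 35.7 CPM under water (-0.67 ± 0.07, adjusted p = 5.26e-06). PME31, an enzyme linked to salt tolerance, had 24.3, 19.0 and 21.7 CPM in air and 16.1, 14.5 and 17.0 CPM under water (-0.45 ± 0.11, adjusted p = 0.00310). The PME31 groups were separate but close, 19.0 against 17.0 CPM at the nearest. The other short enzyme tested, PME10 (AT2G19150), was at 0.197 to 0.564 CPM in air and 0.135 to 0.722 CPM under water, overlapping fully (0.41 ± 0.68, adjusted p = 0.629).

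**Figure D2:**
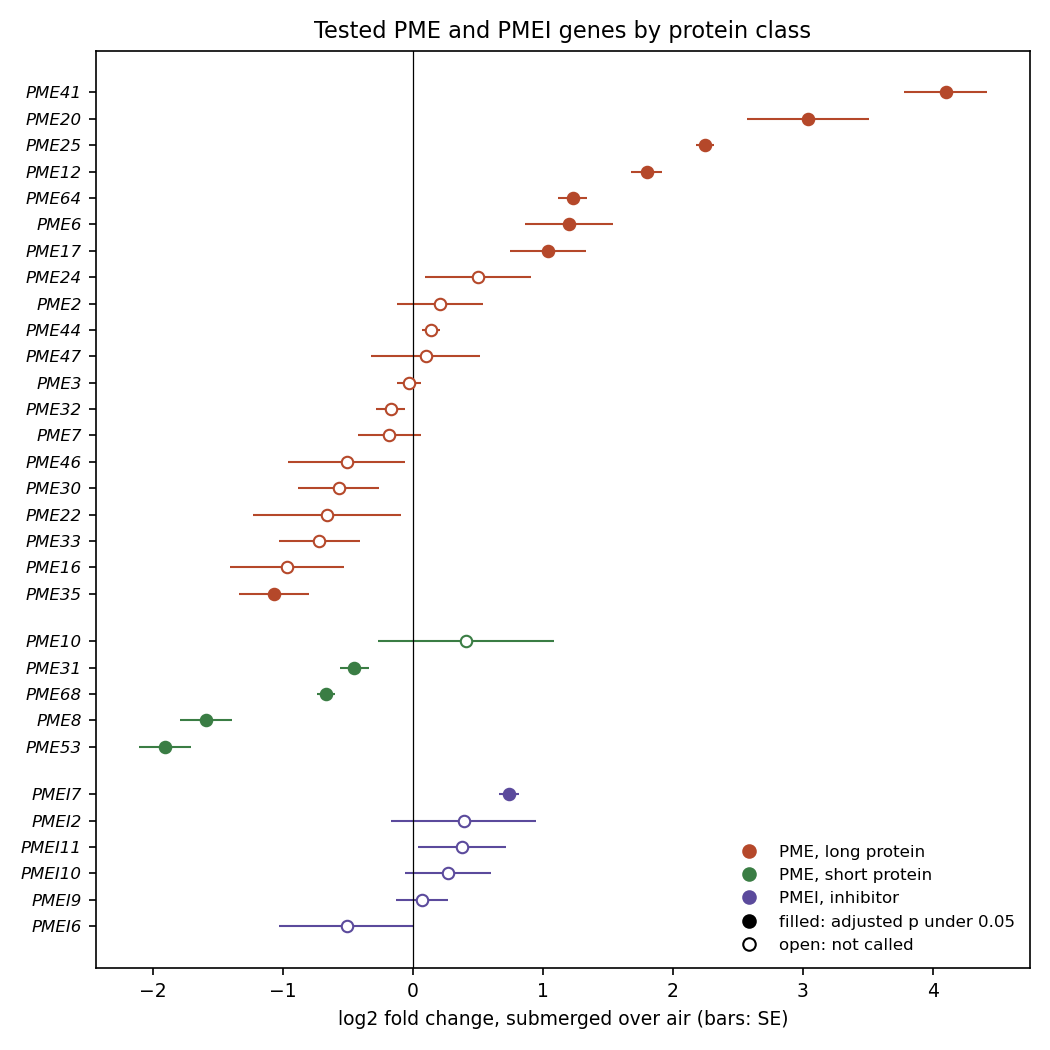
Log2 fold change (submerged over air) with SE for the 31 members tested, grouped as long PME, short PME and PMEI; filled points passed the test. Filled points of the long class lie mainly to the right, from 1.04 to 4.10 with PME35 at -1.07, and those of the short class to the left, from -1.91 to -0.45.

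Of the genes named PMEI, PMEI7 (AT4G25260), which is known to block PME3 in a way that depends on pH, was the most abundant and the one called. It went from 19.4, 22.8 and 21.7 CPM to 35.3, 34.9 and 36.7 CPM, with little spread in either group (0.74 ± 0.08, adjusted p = 4.15e-06). The other 5 tested were PMEI9, PMEI10, PMEI11, PMEI2 and PMEI6, the last a PME inhibitor known from seed coat mucilage. Their groups overlapped, with log2 fold changes from -0.51 to 0.39 and adjusted p from 0.363 to 0.789. PMEI10 and PMEI11, known to be induced by Botrytis and to limit its growth, stood at 0.27 ± 0.33 and 0.38 ± 0.34. Their SE ran from 0.20 for PMEI9 to 0.56 for PMEI2.

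PME3 (AT3G14310), a broadly expressed enzyme that affects infection by Botrytis and by cyst nematodes, had the highest TPM of the members in every library, although PME25 had more CPM in submerged replicates 2 and 3. Its level was 241, 267 and 269 CPM in air and 274, 274 and 212 CPM under water, so the ranges overlapped and submerged replicate 3 was the lowest of all (-0.03 ± 0.09, adjusted p = 0.794). PME44 (AT4G33220) was also abundant and overlapped, at 95.3, 89.8 and 108 CPM in air and 110, 108 and 104 CPM under water (0.14 ± 0.07, adjusted p = 0.113). It was called higher, at 0.21, without air replicate 3 (adjusted p = 0.0158), and at 0.23 with the root covariate (adjusted p = 0.0157).

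Per gene length, the order in air was PME3 (183 ± 12.9 TPM), PME68 (62.1 ± 5.24), PME44 (44.9 ± 3.71), PME25 (30.6 ± 0.817), PME31 (28.3 ± 3.07) and PMEI7 (22.9 ± 2.22). PME25 (29.9 to 31.5 TPM) and PME31 (25.4 to 31.5) overlapped, and the other neighbours in this order did not. Under water PME3 stood at 179 ± 28.7 TPM, PME25 at 146 ± 13.8, PME41 at 51.2 ± 12.2, PME44 at 49.4 ± 2.26, PME68 at 39.2 ± 0.853 and PMEI7 at 38.3 ± 0.387. The ranges of PME3 and PME25 then overlapped, and so did those of PME41 and PME44 and of PME68 and PMEI7. PME41 had moved from rank 15 to rank 3 and PME25 from rank 4 to rank 2, while PME8 went from rank 9 to rank 18 and PME53 from rank 11 to rank 23.

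Summed over the 53 PME genes, TPM came to 409, 427 and 418 in air and 578, 617 and 524 under water, a ratio of means of 1.37. The 10 PMEI genes summed to 35.6, 39.8 and 35.4 TPM in air and 55.3, 52.9 and 52.8 TPM under water, a ratio of 1.45. Without PMEI7 the other 9 summed to 14.9, 14.8 and 12.4 TPM in air and 16.8, 15 and 14.2 TPM under water, which overlap, so PMEI7 carried most of the difference. Both full sums were higher in every submerged library than in any air library; no test was run, since members are not replicates. PME25 made up 7.01% to 7.70% of the PME sum in air and 24.6% to 26.1% under water. PME3 went from 41.1% to 45.2% in air to 27.9% to 34.0%, at a level that did not pass the test, and the 16 short enzymes together from 23.5% to 27.8% down to 10.6% to 12.6%. The shares describe transcript levels and say nothing of enzyme activity.

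**Figure D3:**
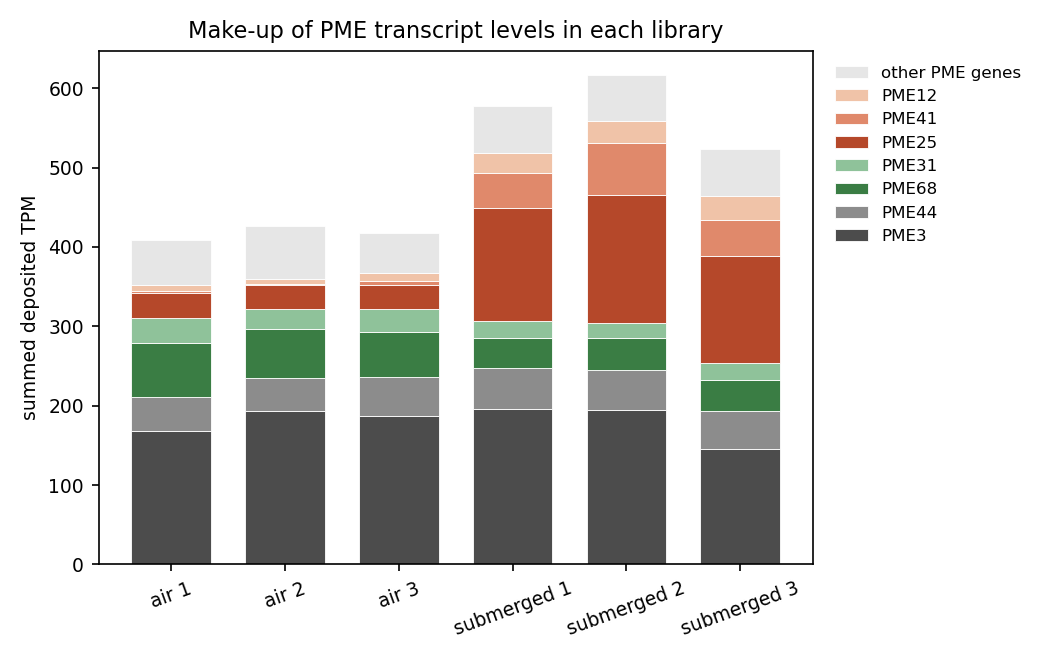
Summed deposited TPM of the 53 PME genes in each library, split into 7 abundant members and the rest. PME25 and PME41 (red shades) take up more of the bar in the 3 submerged libraries, PME68 and PME31 (green shades) less, and PME3 (dark grey) is the largest block in each library.

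Of the PME genes tested, 13 were not called, PME3, PME44 and PME10 among them, with log2 fold changes from -0.97 to 0.50 and adjusted p from 0.0672 to 0.851. PME33 (-0.72 ± 0.31, adjusted p = 0.0672) and PME16 (-0.97 ± 0.44, adjusted p = 0.0783) were nearest to the threshold. PME33 was called lower without air replicate 3 (-0.88, adjusted p = 0.0426) and without submerged replicate 1 (-0.99, adjusted p = 0.0385), and PME16 without air replicate 1 (-1.24, adjusted p = 0.0444). With the root covariate PME33 was called lower at -0.92 (adjusted p = 0.0434). PME30 was lower in every submerged library (1.09 to 2.19 CPM) than in any air library (2.30 to 2.49 CPM) and still did not pass (adjusted p = 0.136). In all, 14 tested members had groups that did not overlap, 8 higher and 6 lower (25.8% and 19.4%, against 32.2% and 30% of all genes tested).

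PME46 (AT5G04960) varied more between air libraries than between conditions. It had 4.76, 10 and 1.62 CPM in air and 4.62, 4.04 and 2.73 CPM under water, and thus followed the root markers in air (-0.51 ± 0.45, adjusted p = 0.361). Without air replicate 2 it stood at 0.24 (adjusted p = 0.639), without air replicate 3 at -0.93 (adjusted p = 0.0216), and with the root covariate at -1.15 (adjusted p = 0.000361). PME24 (AT3G10710), the gene RefSeq names root hair specific 12, had 1.77, 1.83 and 0.737 CPM in air and 2.9, 2 and 1.19 CPM under water (0.50 ± 0.41, adjusted p = 0.319).

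The remaining 32 members did not pass the count filter. No count in any library was found for 15 of them, among them PME4 (VGDH1 in RefSeq), PME48, PME49, PME58, PMEI5 and PMEI12. PME4 and PME48 are known from pollen and PME58 from seed mucilage. PME6 and PMEI6, also tied to seed mucilage, did pass the filter, and why the 15 had no count was not tested. The other 17 untested members had 2 to 57 counts over the 6 libraries. Low counts in these tables are mostly even, as if read pairs were counted as 2, so detection was set at more than 6 counts (3 read pairs) summed over a group, and 9 of the 17 exceeded it in at least 1 group.

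Of those 9, the neighbours PME59 and PME60 had groups that did not overlap in the upward direction, and PME40 in the downward; these were singled out after their values were seen. PME59 (AT5G51490) had 4, 4 and 2 counts in air and 24, 13 and 8 under water, a ratio of 4.29 (95% exact binomial interval on halved counts 1.55 to 14.2, counting error only). PME60 (AT5G51500) had 4, 2 and 2 counts in air and 12, 18 and 14 under water, a ratio of 5.24 (1.78 to 20.9). Without a count filter both were called higher, at 2.01 (adjusted p = 0.0331) and 2.40 (adjusted p = 0.0164). As adjacent related genes they may share reads, which was not measured. PME40 (AT4G02320) had 4, 11 and 4 counts in air and 2, 0 and 0 under water, a ratio of 0.1 (0.00219 to 0.669), and was not called without a count filter (-3.15, adjusted p = 0.052). PME56 (AT1G11370), at 0 in air and at 4, 6 and 0 counts under water, stood at least 1.59-fold higher with 6 counts, the detection floor over a group, in place of the 0 in air. Its groups overlapped at 0, and it was not called without a count filter (adjusted p = 0.0926).

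Many members lie side by side on the chromosome. By the gene order of the RefSeq annotation, 27 of the 63 were direct neighbours of another member, in 14 adjacent pairs. In 6 pairs a gene that passed the filter stood beside one that did not, in 3 pairs both passed, and in 5 neither did. PME3, at a mean of 181 TPM over the 6 libraries, neighbours PME26, which had 2 counts in air and 2 under water. PME44 (47.2 TPM) neighbours PME45, with 0 and 2 counts, and PME12 (18.2 TPM) neighbours PME13, with 0 and 2 counts. In these pairs the neighbours differed widely in level, while PME59 (0.301 TPM) and PME60 (0.332 TPM) were alike, and PME14 and PME15 were both at 0. In 4 pairs 1 member was called (PME12, PME25, PME41 and PMEI7); the neighbour was tested only for PME25, so the pairs say little on whether neighbours change together. PME25 rose while PME24 beside it did not pass the test. PMEI7 rose while PMEI4, with 27 counts in air and 28 under water, showed a ratio of 0.988 (0.421 to 2.16). PME41 rose beside PME40, which had 19 counts in air and 2 under water and was not tested.

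Genes that share the family's annotation but carry no plain PME or PMEI number in the table were described for context. Of 8 such pectinesterase genes 4 were tested, and 2 were called higher: AT3G49220 (0.87 ± 0.10, adjusted p = 6.46e-06) and the gene listed as PME1_1 (AT1G53840), from 75.4 ± 2.21 to 119 ± 4.48 CPM (0.66 ± 0.06). Of 68 inhibitor-domain genes 16 were tested, 3 called higher and 6 lower (median -0.20), beside 28.8% and 26.1% of all genes. The inhibitor domain is shared by inhibitors of invertase, and for most of these genes the annotation does not say which enzyme is blocked. An exception was the gene listed as PME1_2 (AT4G12390), which RefSeq calls pectin methylesterase inhibitor 1. It was called lower, from 20.6 ± 1.08 to 12.8 ± 1.04 CPM (-0.68 ± 0.10, adjusted p = 6.03e-05). AT5G20740 (1.55 ± 0.18, adjusted p = 8.13e-06) and AT5G62360 (1.48 ± 0.12, adjusted p = 3.13e-07) were the largest rises. AT3G17130 (-1.99 ± 0.59, adjusted p = 0.0110, and -3.11 without submerged replicate 1) and AT1G23205 (-1.49 ± 0.40, adjusted p = 0.00684) were the largest falls. AT3G17130 had only 18, 22 and 19 counts in air and 12, 2 and 2 under water, and passed the filter through the air group. The most abundant inhibitor-domain gene, AT5G62350, stood at 405 ± 25.2 CPM in air and 354 ± 36 CPM under water, with overlapping groups. Its call was near the threshold (-0.20 ± 0.08, adjusted p = 0.0434). The PMEI sum above thus leaves out the inhibitor-domain gene with the most counts, and it leaves out PME1_2, which fell. A further 5 loci carry the word pectinesterase beside a domain of unknown function; 2 were tested and neither was called.

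All 7 genes of a list for homogalacturonan synthesis and methylation were called higher, against 28.8% of all genes tested. Their median log2 fold change was 0.91, beside 0.01 for all genes. The list was short and written by hand with earlier results of these data known, so it does not stand for the whole pathway. QUA2 (AT1G78240), a pectin methyltransferase gene, went from 60.8 ± 4.38 to 348 ± 7.22 CPM (2.52 ± 0.06, adjusted p = 1.94e-11). CGR2 (AT3G49720), a Golgi methyltransferase, rose by 1.82 ± 0.06, and the galacturonosyltransferase GAUT8 (AT3G25140, also QUA1) by 1.31 ± 0.06. CGR3, a close relative of CGR2, rose by 0.91 ± 0.08.

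The lists of other pectin-acting enzymes held genes called in either direction. Of 12 pectin acetylesterase genes, which remove acetyl groups, 11 were tested, 4 called higher and 2 lower (median 0.10), shares near the 28.8% and 26.1% of all genes. PAE11 (AT5G45280) had the largest change, from 15.2 ± 1.84 to 141 ± 11.7 CPM (3.21 ± 0.09, adjusted p = 3.45e-11). PAE2_1 rose by 1.33 ± 0.25 and PAE5 fell by 0.87 on the log2 scale (SE 0.11). PAE3 (-0.24 ± 0.09, adjusted p = 0.0419) lost its call under several settings, with adjusted p up to 0.165. Of 8 polygalacturonase and polygalacturonase inhibitor genes 4 were tested; the inhibitors PGIP1 (1.13 ± 0.11) and PGIP2 (1.24 ± 0.07) rose and AT1G48100, on the enzyme side of the list, fell (-1.39 ± 0.37, adjusted p = 0.00643). Pectate lyases were taken by RefSeq product name alone, which leaves out any annotated under another name. Of the 6 found, 1 was tested, AT1G67750 (-0.84 ± 0.28, adjusted p = 0.0214). Its call was lost without air replicate 3 (adjusted p = 0.0741), without submerged replicate 2 (adjusted p = 0.0784) and without submerged replicate 3 (adjusted p = 0.0574), and the value was -1.29 without submerged replicate 1.

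Among receptor kinases that bind pectin, FER (AT3G51550), which recognises de-methylated pectin, went from 250 ± 6.43 to 685 ± 28.4 CPM (1.46 ± 0.06, adjusted p = 3.06e-10). WAK2 (AT1G21270), a wall-associated kinase, fell from 40 ± 5.91 to 21.6 ± 0.751 CPM (-0.89 ± 0.10). WAK1 and WAK4 were low and did not pass, and WAK3 and WAK5 had no count, so that 1 of 4 tested rose and 1 fell. Of 4 subtilases reported to cleave or regulate PMEs 3 were tested and 2 fell, SBT3.5 (-0.67 ± 0.13), known to process PME17, and SBT1.7 (-0.38 ± 0.05). Beside these short lists, 28.8% of all genes tested were called higher and 26.1% lower.

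**Figure D4:**
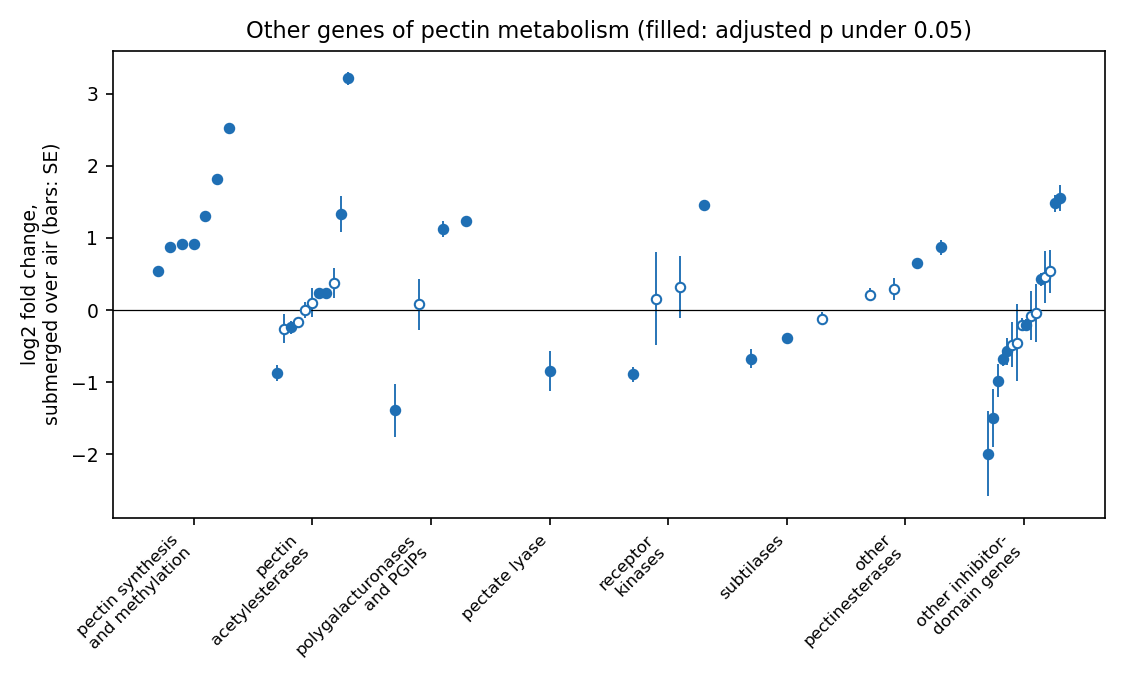
Log2 fold change (submerged over air) with SE for each tested gene of the other pectin lists, 1 column of points per list; filled points passed the test. Every point of the synthesis list lies above 0, from 0.54 to 2.52, while the remaining lists with more than 2 called genes have filled points on both sides.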

How the data were processed

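The authors deposited whole-number counts, RPKM, TPM and CPM per gene and library, per the file headers. The authors' deposited column headed CPM holds a signal, each library's counts over 1 constant, and was not used; the authors' RPKM values served as an alternative to TPM. TAIR10 is the build named per the submitters' processing notes, with aligner, counting program and strand not given in the sources used here. No use was made of the authors' own comparison.

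Counts were tested with edgeR 4.0.16 (R 4.3.3): TMM factors, filterByExpr (minimum count 10, total 15), quasi-likelihood F test, no covariate, all 6 libraries. The SE is the log2 coefficient over the root of F. Alternatives used limma 3.58.1 and DESeq2 1.42.0. The procedure was tested on simulated data. Of counts from 1 to 20, 85.8% to 87.4% were even, against 49.1% to 51.1% over 100. Pairs of libraries in a group differed by 4.54 to 9.39 times the counting variance, of which pairs counted as 2 would give about 2, and no libraries were merged. Members under 1 CPM rest on the fewest counts, where depth gives the least precision.

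Members and lists were chosen with earlier results of these data known. Named were called members changed at least 2-fold, the 6 members with the highest TPM, untested members at 0 in 1 group with at least 6 counts in the other, called members of smaller change where like genes or neighbours split, and up to 4 called genes of largest change per other list; further members were named after their values were seen. Products, protein lengths and gene order come from the RefSeq TAIR10.1 annotation, which holds all 63 members. Promoter and protein motifs were not analysed here.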

Additional observations from a re-analysis of the deposited data

How the results depend on the processing

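In 17 alternative fits the 13 called members kept their direction and their call, with 1 exception, PME6 without submerged replicate 3. Upper quartile scaling, which put the median of all genes at -0.12 in place of 0.01, called 8 PME genes lower in place of 5, adding PME16, PME32 and PME33, and 39.6% of all genes called were then higher in place of 52.5%. The number of tested pectate lyase genes called was 0 with the root covariate and 0 to 2 with a library left out. With a library left out, 7 to 10 PME genes were called higher and 5 to 7 lower, and the summed TPM ratio ran from 1.32 to 1.43 for PME and from 1.42 to 1.51 for PMEI (1.33 and 1.41 with RPKM). Changes of sign were seen only in uncalled members. PMEI9 went to -0.05 and PME47 to -0.02 with upper quartile scaling. With the root covariate PMEI9 went to -0.11, PME47 to -0.18, PME2 to -0.11 and PME24 to -0.02. With 1 library left out, PME3 ran from -0.09 to 0.08, PME7 from -0.33 to 0.17, PME46 from -0.93 to 0.24, PMEI9 from -0.09 to 0.16, PME2 from -0.03 to 0.35, and PME47 from -0.07 to 0.44. The cause of these shifts was not tested. No pairing by replicate number was seen, though so few libraries could miss a weak one. Same-numbered libraries correlated at -0.037, 0.040 and 0.038 in their deviations from the group means, and differently numbered ones at -0.124 to 0.109. With the replicate as a block 7 PME genes were higher, 5 lower and 1 PMEI higher, as without it. Members at 1 CPM or less rest on few counts, and depth limits what can be said of them.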
